A study of Mus musculus with 27 samples.

Results

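The core clock loop is described here through 8 genes, Arntl, Clock, Npas2, Per1, Per2, Per3, Cry1 and Cry2, in the colon of mice that lack Il10 and of wild types. The members were taken as all probe sets annotated to these 8 symbols, of 18193 genes measured. All 8 were measured, by 20 probe sets, and no filter on low values was applied. Each gene is given by its brightest probe set, judged by the mean of the 27 arrays, unless another is named. RNA from the full thickness of the colon was hybridized to 27 mouse arrays, and values are log2 expression, so that a difference of 1 is a doubling. There are 9 groups of 3 arrays each. Il10 -/- mice in conventional housing (labelled CC, read by elimination) were sampled at 7, 9 and 12 weeks of age, as were Il10 -/- mice in specific pathogen free housing (SPF) and wild-type mice in conventional housing (WT). The sources used here do not state the design of the knockout allele, the strain and sex of the mice, the hour of sampling or any pooling of animals. The 3 replicates of a group were selected by the submitters on colon length and damage, so they are not a random draw, and p-values measure only the spread between these samples. No wild types in SPF housing are among the samples, so SPF knockouts differ from wild types in both genotype and housing.

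The core clock is a feedback loop of transcription and translation that runs in nearly every cell of the body. BMAL1, the product of Arntl, pairs with CLOCK or its relative NPAS2 and switches on genes with an E-box, among them the Per and Cry genes. PER and CRY proteins then enter the nucleus and repress their own activators, while the REV-ERB receptors (Nr1d1, Nr1d2) and the ROR receptors act in opposite ways on Arntl. As a result, Arntl and Npas2 transcripts peak at about the opposite time of day to Per transcripts, and Cry1 follows later than the Per genes. In the colon the loop runs in epithelium, muscle and enteric neurons, and it sets daily rhythms of absorption, motility and cell division. The hour of sampling is not given. In all that follows, differences between kinds of mice or ages therefore cannot be told apart from differences in hour of sampling.

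The targeted gene did not read as lost. The Il10 signal was 3.51 to 3.83 in the 9 arrays labelled wild type and 4.66 to 7.09 in the 18 labelled Il10 -/-, so it was higher in every array labelled knockout. Whether its probe set lies in the part removed is not given in the sources used here, so the signal does not check the labels, and every direction below rests on the groups as labelled.

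The 27 arrays were alike in scale, with medians from 4.92 to 4.99 and Spearman correlations between arrays from 0.953 to 0.993. Markers of colon epithelium (6 genes, list means of 11.3 to 12.5) and of smooth muscle (5 genes, 10.2 to 12.3) were present in every array. A list of 8 colitis markers had array means of 4.96 to 5.53 in wild types and 9.56 to 10.8 in conventional knockouts at 9 weeks. In SPF knockouts it was 8.45 to 11.8 at 12 weeks, while conventional knockouts of that age had 6.33 to 6.52. These marker levels did not follow housing alone. Wild-type replicate 1 at 7 weeks had a mean of 7.25 over 5 pancreatic markers, and SPF replicate 3 at 12 weeks had 5.92, against at most 4.14 elsewhere. The actin control of wild-type replicate 2 at 12 weeks was brighter near the 3' end than near the 5' end by 0.95, and by at most 0.72 in the other arrays. In bulk tissue, fewer cells of a type and less RNA per cell cannot be told apart.

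Promoters of the members were searched in RefSeq windows (GRCm38.p6) that run from 250 bases before to 50 bases after a start. Of the 8 genes, 7 had a window, with 11 windows in all. Motifs were searched on both strands, and no match printed here overlaps another. The E-box CACGTG, read by BMAL1 with CLOCK, occurred in 7.15% of all 32851 windows, and the variant E-box, spelled CACGTT on one strand and so AACGTG when read from its complement, in 4.68%. The D-box TTANGTAA, read by DBP, TEF and HLF and by their repressor NFIL3, occurred in 2.32%. A short ROR and REV-ERB element, TNGGTCA, occurred in 11%, and the cyclic AMP element TGACGTCA in 1.79%. The 250 bases before the start follow for 4 members, chosen because they hold matches to the 3 kinds of clock motif. Of these, Arntl, Per3 and Cry1 passed the test between groups at 7 weeks, given below, and Per1 did not. Motif matches are in capitals.
Arntl promoter, chr7:113207215-113207464, plus strand: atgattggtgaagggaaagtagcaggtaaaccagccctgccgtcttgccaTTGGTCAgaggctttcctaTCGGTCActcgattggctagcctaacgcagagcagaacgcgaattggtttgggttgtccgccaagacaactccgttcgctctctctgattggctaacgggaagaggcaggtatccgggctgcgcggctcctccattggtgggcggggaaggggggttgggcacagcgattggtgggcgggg
Per1 promoter, chr11:69098699-69098948, plus strand: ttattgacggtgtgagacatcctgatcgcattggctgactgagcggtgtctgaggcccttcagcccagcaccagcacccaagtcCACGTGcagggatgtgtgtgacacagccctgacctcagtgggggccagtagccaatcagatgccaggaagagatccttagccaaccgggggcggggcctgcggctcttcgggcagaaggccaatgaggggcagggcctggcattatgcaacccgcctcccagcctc
Per3 promoter, chr4:151044666-151044915, minus strand: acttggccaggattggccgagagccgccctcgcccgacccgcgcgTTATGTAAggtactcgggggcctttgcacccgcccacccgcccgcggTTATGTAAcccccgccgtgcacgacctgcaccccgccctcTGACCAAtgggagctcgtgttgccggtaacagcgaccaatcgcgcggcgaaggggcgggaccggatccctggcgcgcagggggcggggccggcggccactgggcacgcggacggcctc
Cry1 promoter, chr10:85185055-85185304, minus strand: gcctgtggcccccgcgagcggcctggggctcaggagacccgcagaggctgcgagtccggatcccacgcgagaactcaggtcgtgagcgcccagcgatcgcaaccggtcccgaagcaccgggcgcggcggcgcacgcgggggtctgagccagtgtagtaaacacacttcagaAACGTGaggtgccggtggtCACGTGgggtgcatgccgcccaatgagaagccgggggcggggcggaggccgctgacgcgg
The Arntl sequence holds ROR element matches that begin 200 and 181 bases before the start, and no E-box letters. Per1 holds an E-box 166 bases before its start. Per3 holds D-boxes at 205 and 158 bases and an ROR element match on the other strand at 118 bases before the start. Cry1 holds the variant E-box at 79 bases and the E-box at 60 bases before its start. Cry2 also holds a variant E-box (166 bases before the start) and an ROR element match (133 bases). The window of Npas2, which also passed the test at 7 weeks, holds no match. The Clock windows and the other Per1 window hold none either. A match is a description of letters in these windows and was not tested for binding.

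Across the 9 groups, 7 of the 8 members spanned a wide range, while Clock hardly moved by its brightest probe set. The highest and lowest group means lay 2.62 apart for Per3, 2.27 for Arntl, 1.92 for Cry1, 1.79 for Npas2 and for Per2, 1.53 for Per1 and 1.45 for Cry2. The median of this range over all 18193 genes was 0.42, and these 7 members lay between the 94.8th and the 99.1st percentile of genes. For Clock the range was 0.36, at the 39.6th percentile. Probe sets differ in how strongly they respond, so the ranges do not rank the genes by change in RNA.

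**Figure D1:**
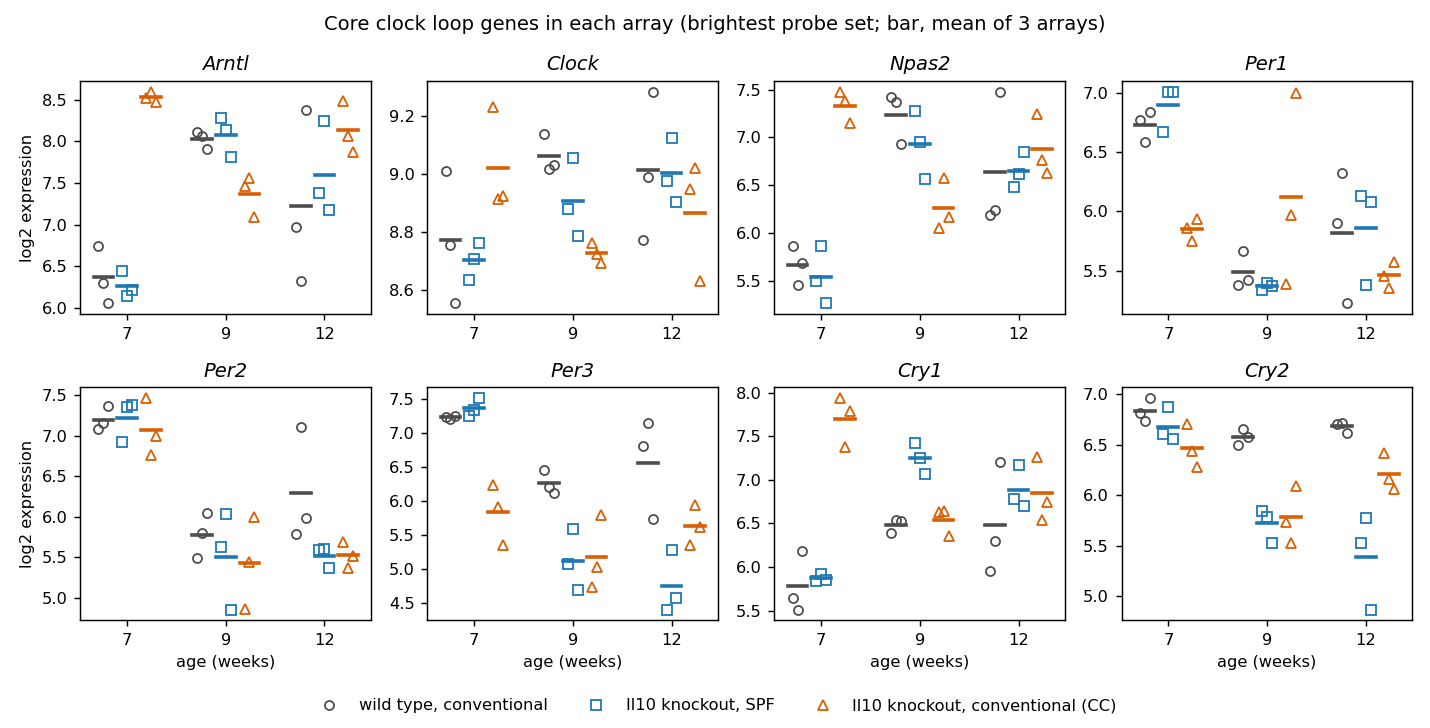
Log2 expression of the 8 clock loop genes in each of the 27 arrays, by age in weeks, with circles for wild types, squares for SPF knockouts and triangles for conventional knockouts (CC), and a bar at the mean of 3 arrays. At 7 weeks the CC arrays lie above all others for Arntl, Npas2 and Cry1 and below them for Per1 and Per3, and Per2 is high at 7 weeks in every kind of mouse.

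Arntl, the activator without which the loop stops, separated the 7-week groups widely. At 7 weeks Arntl read 8.53, 8.60 and 8.47 in conventional knockouts, against 6.44, 6.14 and 6.21 in SPF knockouts and 6.74, 6.30 and 6.05 in wild types. All 3 conventional arrays lay far above the other arrays of that age. In the 9-week arrays it read 7.46, 7.56 and 7.09 in conventional knockouts, 8.28, 8.14 and 7.81 in SPF knockouts and 8.11, 8.07 and 7.91 in wild types. The order was now turned, with the conventional arrays lowest and no overlap. In the 12-week arrays it read 8.49, 8.06 and 7.87 in conventional knockouts, 7.38, 8.24 and 7.17 in SPF knockouts and 6.97, 6.32 and 8.38 in wild types. These groups overlapped. Wild-type replicate 3 and SPF replicate 2 stood with the conventional knockouts, and the other wild types near their 7-week level. Group means ran from 8.53 (SD 0.06) in 7-week conventional knockouts to 6.26 (SD 0.15) in 7-week SPF knockouts, and every pair of neighbours in that order overlapped. A second, dimmer Arntl probe set gave differences of the same sign in 8 of the 9 comparisons of groups at one age, the exception being SPF knockouts against wild types at 7 weeks, where both were near 0 (-0.10 and 0.09).

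Npas2, the partner of BMAL1 that can stand in for CLOCK, followed Arntl. At 7 weeks it read 7.47, 7.38 and 7.15 in conventional knockouts, 5.50, 5.86 and 5.26 in SPF knockouts and 5.87, 5.45 and 5.69 in wild types. The conventional arrays were again apart and high. By 9 weeks it read 6.05, 6.58 and 6.17 in conventional knockouts, 7.27, 6.95 and 6.57 in SPF knockouts and 7.42, 7.37 and 6.93 in wild types. The conventional arrays were below all wild types, and 1 of them (6.58) just passed the lowest SPF array (6.57). By 12 weeks it read 7.25, 6.76 and 6.63 in conventional knockouts, 6.48, 6.62 and 6.85 in SPF knockouts and 6.19, 6.24 and 7.48 in wild types, where replicate 3 again stood apart. In the order of group means, from 7.33 (SD 0.17) to 5.54 (SD 0.30), only the step from 9-week conventional knockouts (6.26) to 7-week wild types (5.67) was free of overlap. Its dimmer probe set gave differences of the same sign in all 9 comparisons at one age, smaller at 7 and 9 weeks and larger at 12 weeks. It gave 1.16 ± 0.27 (SE) for conventional knockouts minus wild types at 7 weeks, which missed the threshold over all probe sets (adjusted p = 0.063).

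Clock, the histone acetyltransferase partner of BMAL1, lay between 8.56 and 9.28 in all 27 arrays by its brightest probe set, and neighbours in the order of its 9 group means all overlapped. No comparison called it (lowest adjusted p among groups of one age 0.0685, conventional knockouts minus wild types at 9 weeks, -0.33 ± 0.13). Its 3 dimmer probe sets did pass there, at -0.62 ± 0.17, -0.56 ± 0.17 and -0.72 ± 0.17 (adjusted p of 0.0127, 0.0237 and 0.00483 over 45037 probe sets). Of these, 2 also passed in SPF knockouts minus wild types at 12 weeks (-0.49 ± 0.17 and -0.51 ± 0.17), where the brightest gave -0.01 ± 0.13. In conventional knockouts from 7 to 9 weeks 2 of the 4 probe sets were called lower, with all 4 between -0.65 and -0.29. All 4 probe sets of Clock were thus lower than wild types in 9-week conventional knockouts, with the brightest short of the threshold. They disagreed on a fall in 12-week SPF knockouts.

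Among the repressors, Per2, the PER protein gene with the largest effect on rhythm when lost, varied mostly with age. At 7 weeks it read 7.47, 6.76 and 6.99 in conventional knockouts, 6.93, 7.36 and 7.39 in SPF knockouts and 7.08, 7.16 and 7.36 in wild types. The 9 arrays of 7 weeks mixed freely. At 9 weeks it read 4.86, 5.44 and 6.0 in conventional knockouts, 5.63, 6.04 and 4.85 in SPF knockouts and 5.49, 5.80 and 6.05 in wild types. All 9 of these lay below all 9 arrays of 7 weeks. At 12 weeks it read 5.69, 5.37 and 5.52 in conventional knockouts, 5.59, 5.61 and 5.36 in SPF knockouts and 5.79, 7.11 and 5.99 in wild types. Wild-type replicate 2 alone was back at the 7-week level, and it is the array with the unusual actin signal. Neighbours in the order of the 9 group means, from 7.22 (SD 0.26) to 5.43 (SD 0.57), all overlapped. All 3 Per2 probe sets were lower at 9 than at 7 weeks in each kind of mouse, by 0.56 to 1.72.

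Per1, the family member most quickly induced by cyclic AMP and glucocorticoids, had a single probe set. At 7 weeks it read 5.86, 5.75 and 5.93 in conventional knockouts, 6.67, 7.01 and 7.01 in SPF knockouts and 6.77, 6.58 and 6.84 in wild types. The conventional arrays lay below the other 6. By 9 weeks it read 5.39, 5.97 and 7.00 in conventional knockouts, 5.34, 5.40 and 5.37 in SPF knockouts and 5.38, 5.67 and 5.42 in wild types. Conventional replicate 3 stood apart from its group, and its mean over 4 glucocorticoid responders was 9.37, against 7.10 and 7.79 in replicates 1 and 2. The part of this in the Per1 value was not tested. By 12 weeks it read 5.45, 5.36 and 5.58 in conventional knockouts, 6.13, 5.38 and 6.08 in SPF knockouts and 5.90, 6.33 and 5.22 in wild types, all overlapping. Group means ran from 6.90 (SD 0.19) in 7-week SPF knockouts to 5.37 (SD 0.03) in 9-week SPF knockouts, with overlap between all neighbours.

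Per3, a PER gene that the loop can run without, had the widest range. At 7 weeks it read 6.24, 5.91 and 5.36 in conventional knockouts, 7.25, 7.33 and 7.51 in SPF knockouts and 7.23, 7.21 and 7.24 in wild types. The conventional arrays were low and spread, the others tight. In the 9-week arrays it read 4.74, 5.02 and 5.79 in conventional knockouts, 5.08, 5.58 and 4.69 in SPF knockouts and 6.46, 6.21 and 6.11 in wild types. Both knockouts lay below all wild types. In the 12-week arrays it read 5.36, 5.94 and 5.61 in conventional knockouts, 4.40, 5.27 and 4.57 in SPF knockouts and 6.80, 7.14 and 5.74 in wild types. SPF knockouts were lowest, and wild-type replicate 3 was down among the conventional knockouts. In the order of group means, from 7.36 (SD 0.13) in 7-week SPF knockouts to 4.75 (SD 0.46) in 12-week SPF knockouts, the steps from 7-week SPF knockouts to 7-week wild types and from those to 12-week wild types were free of overlap, by narrow gaps, and the other neighbours overlapped.

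Per3 has 6 probe sets, which did not all respond. At 7 weeks conventional knockouts minus wild types gave -1.95 ± 0.24, -1.57 ± 0.29 and -0.71 ± 0.15 in 3 dimmer probe sets (adjusted p of 0.000123, 0.0126 and 0.0351 over 45037 probe sets). The brightest, at -1.39 ± 0.31, missed this threshold (adjusted p = 0.0518). The dimmest 2 had mean levels of 3.84 and 3.62 over the arrays, near the low end of the values, and neither was called in a comparison of groups of one age, while 1 of them fell from 7 to 12 weeks in SPF knockouts (-0.56, adjusted p = 0.00819). Cry1 and Cry2 had 1 probe set each.

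**Figure D2:**
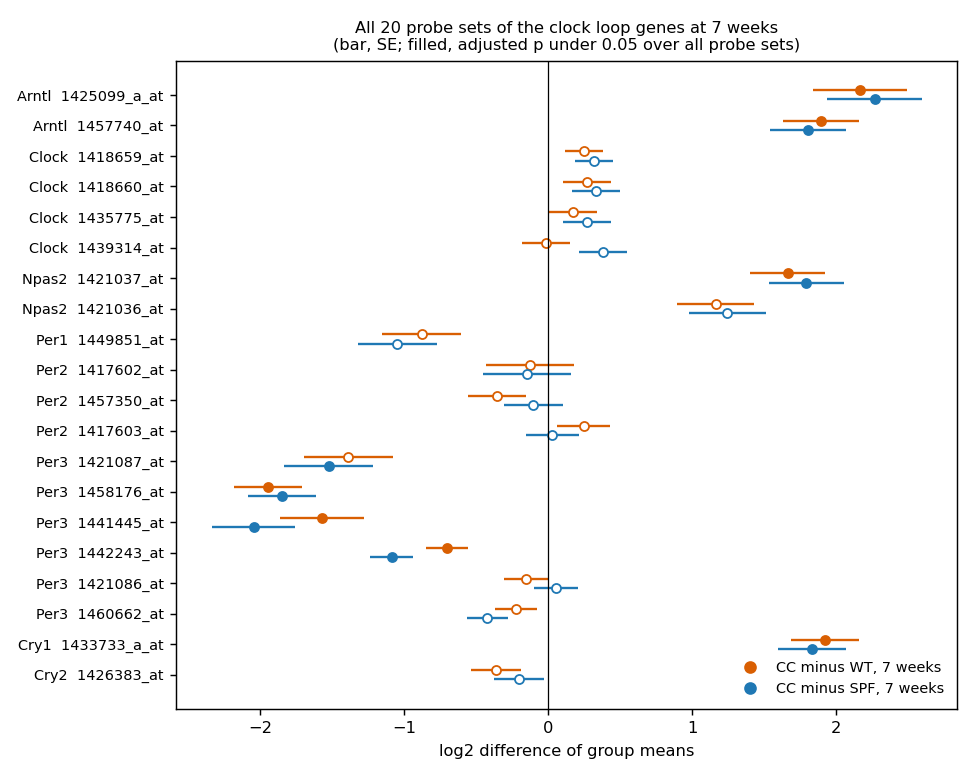
Log2 differences of group means at 7 weeks for all 20 probe sets of the 8 genes, conventional knockouts (CC) minus wild types and minus SPF knockouts, with bars of 1 SE and filled points where the adjusted p over all probe sets was under 0.05. Both Arntl probe sets lie near 2, and the Per3 probe sets spread from -2.05 to 0.05.

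Cry1, the slower and stronger of the CRY repressors, went with the activators. At 7 weeks it read 7.94, 7.37 and 7.79 in conventional knockouts, 5.84, 5.92 and 5.85 in SPF knockouts and 5.64, 5.51 and 6.19 in wild types. The conventional arrays stood more than 1 unit above the rest. At 9 weeks it read 6.63, 6.64 and 6.35 in conventional knockouts, 7.42, 7.26 and 7.07 in SPF knockouts and 6.39, 6.54 and 6.53 in wild types. Here the SPF knockouts were highest, without overlap. At 12 weeks it read 7.26, 6.54 and 6.74 in conventional knockouts, 6.78, 7.17 and 6.70 in SPF knockouts and 5.96, 6.29 and 7.20 in wild types, which overlapped. Group means ran from 7.70 (SD 0.29) to 5.78 (SD 0.36), and only 12-week wild types and 7-week SPF knockouts were neighbours without overlap.

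Cry2, the second CRY repressor, was steady in wild types and lower in both knockouts at 9 and 12 weeks. At 7 weeks it read 6.71, 6.44 and 6.28 in conventional knockouts, 6.61, 6.87 and 6.56 in SPF knockouts and 6.81, 6.74 and 6.96 in wild types. In the 9-week arrays it read 5.73, 5.53 and 6.09 in conventional knockouts, 5.85, 5.79 and 5.53 in SPF knockouts and 6.50, 6.66 and 6.58 in wild types. Knockouts and wild types were fully apart. In the 12-week arrays it read 6.42, 6.17 and 6.06 in conventional knockouts, 5.53, 5.78 and 4.87 in SPF knockouts and 6.71, 6.71 and 6.62 in wild types. The 3 kinds were in 3 separate bands, with the SPF knockouts lowest. Group means ran from 6.84 (SD 0.11) in 7-week wild types to 5.39 (SD 0.47) in 12-week SPF knockouts, and only the first step, from 7-week to 12-week wild types (6.68), was free of overlap. The array with the lowest Cry2 of all was SPF replicate 3 at 12 weeks (4.87). It also had the lowest smooth muscle (10.2), neuron and glia (5.04) and epithelium (11.3) means of the 27 arrays. Its colitis (11.8) and neutrophil (9.04) means were the highest. The part of these in the Cry2 value was not tested.

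Groups were compared by differences of means ± SE (n = 3 arrays per group) in 1 limma fit of all arrays, with p adjusted over all genes of a comparison and a threshold of 0.05. The median difference over all genes lay between -0.018 and 0.021 in the 18 comparisons of 2 groups. Comparisons that share a group of arrays are not independent of each other.

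At 7 weeks conventional knockouts had more Arntl, Npas2 and Cry1 RNA and less Per3 than wild types. Arntl was higher by 2.17 ± 0.33 (4.49-fold, adjusted p = 0.00141), Npas2 by 1.66 ± 0.26 (3.17-fold, adjusted p = 0.00207) and Cry1 by 1.92 ± 0.24 (3.8-fold, adjusted p = 0.000153). Per3 was lower, at -1.39 ± 0.31 (adjusted p = 0.0448). Thus 3 members were higher and 1 lower, of 8, where 0.506% of all genes were called. The median absolute difference was 1.13 over the members and 0.12 over all genes. Per1 (-0.88 ± 0.28, adjusted p = 0.214) and Cry2 (-0.37 ± 0.18, adjusted p = 0.456) did not pass, though neither overlapped, and Per2 differed by -0.13 ± 0.31. Per1 did pass in limma with array weights (-0.87, adjusted p = 0.0185) and with only the groups compared (adjusted p = 0.00773). In all 6 members did not overlap, as did 18.6% of all genes. The calls of Arntl, Npas2 and Cry1 held without each array in turn, while the Per3 call was lost without any 1 of 18 arrays (adjusted p from 0.0503 to 0.296), which were the 9 of 7 weeks, 9-week conventional replicate 2, SPF replicate 1 and all 3 wild types, and 12-week conventional replicates 1 to 3 and wild-type replicate 1. It was also lost without both doubted wild-type arrays (adjusted p = 0.0601), and in all these cases the difference was between -1.59 and -1.15. In a fit with a block for same-numbered replicates it was lost too (-1.39, adjusted p = 0.0523).

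Against SPF knockouts of the same age, which share the conventional arrays with the comparison above, the same 4 genes were called. Arntl was higher by 2.27 ± 0.33 (adjusted p = 0.0011), Npas2 by 1.79 ± 0.26 (adjusted p = 0.0011) and Cry1 by 1.83 ± 0.24 (adjusted p = 0.000327), and Per3 was at -1.53 ± 0.31 (adjusted p = 0.0339). Here too 3 members were higher and 1 lower, with 0.269% of all genes called. Per1 was at -1.05 ± 0.28 (adjusted p = 0.209), and passed without 9-week conventional replicate 3, an array of neither group that enters through the shared spread (adjusted p = 0.0306). Per1 also passed in limma with array weights (-1.08, adjusted p = 0.00187) and with only the groups compared (adjusted p = 0.00711). The Per3 call was lost without any of the 6 arrays of the 2 groups, with -1.73 to -1.29 and an adjusted p of up to 0.254 (without conventional replicate 3). SPF knockouts and wild types did not differ in any member at 7 weeks by this test: 0 were called, 0 had an unadjusted p under 0.05, and 0.055% of all genes were called. The member differences lay between -0.16 ± 0.18 (Cry2) and 0.17 ± 0.28 (Per1).

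**Figure D3:**
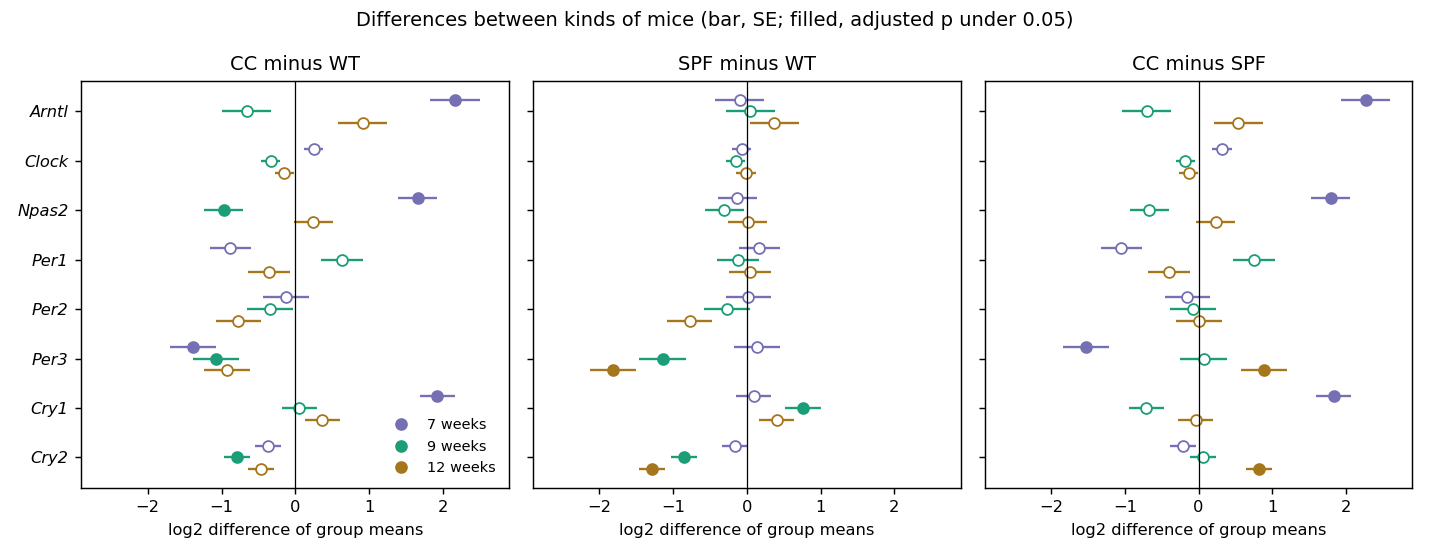
Log2 differences of group means for the 8 genes at 7, 9 and 12 weeks (colours) between conventional knockouts (CC), SPF knockouts and wild types (WT), with bars of 1 SE and filled points where the adjusted p was under 0.05. At 7 weeks Arntl, Npas2 and Cry1 lie 1.66 or more above 0 in both panels with CC, and Per3 and Cry2 lie below 0 in SPF minus WT at 9 and 12 weeks.

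Genes around the loop were counted from lists of clock genes. In conventional knockouts minus wild types at 7 weeks, all 4 output factors were called: the D-box activators Dbp (-5.04 ± 0.67), Tef (-2.25 ± 0.34) and Hlf (-1.63 ± 0.37) were lower, and their repressor Nfil3 (2.50 ± 0.24) was higher. Of 7 receptors and repressors, 3 were lower, the REV-ERB genes Nr1d1 (-3.15 ± 0.41) and Nr1d2 (-2.82 ± 0.37) and the BMAL1 repressor Ciart (-2.04 ± 0.26). Of 12 kinases, ligases and partners of PER and CRY none was called (3 at an unadjusted p under 0.05), nor of 4 other E-box genes (1 unadjusted) or 4 glucocorticoid responders (0 unadjusted). Among 8 immediate early genes, which respond quickly to growth and stress signals, 4 were higher: Fos (1.10 ± 0.20), Egr1 (1.84 ± 0.36), Atf3 (1.37 ± 0.31) and Nr4a1 (1.26 ± 0.29). The list medians were -1.94 for output factors, -0.33 for receptors and 0.88 for immediate early genes, against -0.0027 over all genes. Of 8 colitis markers 1 was higher, with a median of 0.32. The lists share arrays and, for output factors, are part of the same loop, so they add no separate evidence.

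At 9 weeks conventional knockouts had less Npas2, Per3 and Cry2 RNA than wild types. Npas2 was at -0.97 ± 0.26 (adjusted p = 0.0105), Per3 at -1.08 ± 0.31 (adjusted p = 0.0154) and Cry2 at -0.79 ± 0.18 (adjusted p = 0.00302). So 0 members were higher and 3 lower, but 24.0% of all genes were called in this comparison. Arntl (-0.66 ± 0.33, adjusted p = 0.16) did not pass, nor did Per1 (0.63 ± 0.28, adjusted p = 0.107) or Cry1 (0.05 ± 0.24). The Npas2 call was lost without conventional replicate 1 (-0.86, adjusted p = 0.0619), and the Per3 call without conventional replicate 1 or 2 or wild-type replicate 1 (-0.86, -1.0 and -0.98, adjusted p of 0.106, 0.0594 and 0.0608). Without 12-week wild-type replicate 3, which enters through the shared spread, 5 members were called, with Arntl and Clock added (adjusted p of 0.0429 and 0.0487). Without conventional replicate 1 Per1 was called (1.0, adjusted p = 0.0211).

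SPF knockouts at 9 weeks differed from the same wild types in Per3 (-1.14 ± 0.31, adjusted p = 0.0224), Cry2 (-0.86 ± 0.18, adjusted p = 0.00469) and Cry1 (0.76 ± 0.24, adjusted p = 0.0414). With 1 member higher and 2 lower, against 11.8% of all genes called, Arntl (0.04 ± 0.33) and Npas2 (-0.31 ± 0.26) were close to the wild types. Without SPF replicate 3 none of the 3 calls remained (Per3 -0.93, adjusted p = 0.161, Cry2 -0.76, adjusted p = 0.0511, and Cry1 0.85, adjusted p = 0.104). The Cry1 call was lost without any of the 6 arrays (0.68 to 0.85, adjusted p of 0.0807 to 0.117), and the Per3 call also without wild-type replicate 1 (-1.05, adjusted p = 0.0815) or 2 (-1.17, adjusted p = 0.0593). With the replicate block the Cry1 call was lost too (adjusted p = 0.0678). SPF replicate 3 had a colitis mean of 9.78, against 6.76 and 7.41 in replicates 1 and 2. Between the 2 knockouts at 9 weeks limma called 0 members, 0.0% of all genes (4 members at an unadjusted p under 0.05: Arntl -0.71 ± 0.33, Npas2 -0.67 ± 0.26, Per1 0.75 ± 0.28 and Cry1 -0.71 ± 0.24, conventional minus SPF).

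List counts at 9 weeks stand beside 24.0% of all genes called in conventional and 11.8% in SPF knockouts, each against wild types. The output factor Nfil3 was higher in both knockouts (1.58 ± 0.24 in conventional and 1.45 ± 0.24 in SPF). Dbp (-2.18 ± 0.67) and Tef (-1.46 ± 0.34) were called lower in SPF knockouts, as were Nr1d1 (-1.55 ± 0.41) and Nr1d2 (-1.55 ± 0.37). No receptor or repressor was called in conventional knockouts, where 3 of 7 had an unadjusted p under 0.05. Of the E-box genes, conventional knockouts had more Nampt (1.07 ± 0.18), the enzyme that makes NAD precursors, and less Wee1 (-0.43 ± 0.12), a cell cycle kinase, and Ppargc1a (-1.54 ± 0.45), a coactivator of mitochondrial genes. SPF knockouts had more Nampt (0.72 ± 0.18). Of the partners, the casein kinase 2 gene Csnk2a2 was higher in both (0.65 ± 0.16 and 0.55 ± 0.16), and Timeless (0.90 ± 0.25) and the phosphatase gene Ppp1ca (0.35 ± 0.11) in conventional knockouts. Colitis markers were higher in 8 of 8 in conventional and 4 of 8 in SPF knockouts, with medians of 5.03 and 2.39. Neuron and glia markers were lower in 2 of 3 in each (medians -0.76 and -0.77), and smooth muscle markers in 3 of 5 in conventional knockouts (median -0.55) and 0 of 5 in SPF knockouts (4 unadjusted, median -0.57). The part of these cells in the Per3 and Cry2 differences was not tested.

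At 12 weeks the members called were Per3 and Cry2, in the SPF knockouts. Against wild types Per3 was at -1.81 ± 0.31 (3.51-fold lower, adjusted p = 0.00022) and Cry2 at -1.29 ± 0.18 (2.45-fold lower, adjusted p = 3.62e-05), and both calls held without each array in turn. That is 0 members higher and 2 lower, with 34.8% of all genes called, a larger share than of the members. Per2 was at -0.78 ± 0.31 (adjusted p = 0.0549), with no overlap, and passed without any 1 of 6 arrays, 9-week conventional replicate 1 or 3, 9-week SPF replicate 2 or 3 or 12-week wild-type replicate 1 or 3 (adjusted p of 0.0212 to 0.0458). Conventional knockouts were above SPF knockouts in Per3 (0.89 ± 0.31, adjusted p = 0.0413) and Cry2 (0.82 ± 0.18, adjusted p = 0.00333). With 2 members higher and 0 lower, the share of members called was close to the 24.6% of all genes called. The Per3 call was lost without conventional replicate 2 (0.74, adjusted p = 0.152) or 3 (0.90, adjusted p = 0.084) and without SPF replicate 1 (0.72, adjusted p = 0.175) or 3 (0.80, adjusted p = 0.153). With only the groups compared neither Per3 nor Cry2 was called (adjusted p of 0.117 each). Conventional minus SPF knockouts gave -0.20 to 0.89 over the 6 Per3 probe sets, of which 1 was called higher over all probe sets. The brightest Per3 probe set missed that threshold (0.89, adjusted p = 0.0503). The mean of the Per3 probe sets was not called either (0.34, adjusted p = 0.0884).

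Conventional knockouts and wild types at 12 weeks gave 0 called members in limma, with 0.451% of all genes called (82 genes) and 4 members at an unadjusted p under 0.05. Those were Arntl (0.91 ± 0.33), Per2 (-0.77 ± 0.31), Per3 (-0.92 ± 0.31) and Cry2 (-0.47 ± 0.18). This rested on 1 wild-type array: without replicate 3, Arntl (1.49, adjusted p = 0.0107) and Per3 (-1.33, adjusted p = 0.0449) were called. In SPF knockouts minus wild types the same omission gave 5 called members, adding Arntl (0.95, adjusted p = 0.00848), Cry1 (0.76, adjusted p = 0.00919) and Per2 (-0.93, adjusted p = 0.0446). Replicate 3 was chosen for this statement after its values were seen.

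Lists of clock genes were counted at 12 weeks too, where 34.8% of all genes were called in SPF knockouts minus wild types. Against wild types all 4 output factors were called, Dbp (-4.07 ± 0.67), Tef (-1.97 ± 0.34) and Hlf (-2.09 ± 0.37) lower and Nfil3 (2.14 ± 0.24) higher, as were 3 of 7 receptors and repressors, all lower (Nr1d1 -1.67 ± 0.41, Nr1d2 -2.18 ± 0.37 and Rora -0.59 ± 0.15). In conventional knockouts 0 of 4 output factors and 0 of 7 receptors were called, with 4 and 3 at an unadjusted p under 0.05. Of 12 partners 5 were higher in SPF knockouts, led by Timeless (1.13 ± 0.25), Csnk2a2 (0.64 ± 0.16) and Ppp1ca (0.42 ± 0.11), and of 8 immediate early genes 3, Fos (0.92 ± 0.20), Junb (1.15 ± 0.24) and Crem (1.06 ± 0.24), which encodes a repressor of cyclic AMP response. The shares of receptors, partners and early genes called were near that of all genes. All 8 colitis markers were higher (median 4.90), and all 5 smooth muscle (median -1.04) and 2 of 3 neuron and glia markers (median -0.90) were lower in SPF knockouts. Array means of epithelial markers were 11.3 to 12.3 in these and 12.2 to 12.4 in wild types. Those of goblet cell markers were 11.8 to 13.30 and 13.31 to 13.7. Conventional knockouts had 2 of 8 colitis markers higher and 0 of 5 smooth muscle markers called. The part of these cells in the Per3 and Cry2 values was not tested.

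Changes with age were compared within each kind of mouse. In SPF knockouts from 7 to 9 weeks every member but Clock was called. Arntl (1.81 ± 0.33, adjusted p = 0.0114), Npas2 (1.39 ± 0.26, adjusted p = 0.0139) and Cry1 (1.38 ± 0.24, adjusted p = 0.00651) rose. Per1 (-1.53 ± 0.28, adjusted p = 0.0114), Per2 (-1.72 ± 0.31, adjusted p = 0.0098), Per3 (-2.25 ± 0.31, adjusted p = 0.000601) and Cry2 (-0.96 ± 0.18, adjusted p = 0.0114) fell. That was 3 higher and 4 lower of 8, against 0.726% of all genes, and all 8 members were without overlap, as were 25.5% of genes. Without SPF replicate 2 at 7 weeks 3 members were called and without SPF replicate 3 at 9 weeks 4, the lost ones having adjusted p of 0.0612 to 0.123 and the same sign. Npas2 was also lost without SPF replicate 1 (1.37, adjusted p = 0.0548) or 3 (1.25, adjusted p = 0.0807) at 7 weeks. With only the groups compared, Npas2, Per2 and Cry2 were not called (adjusted p of 0.102, 0.109 and 0.091).

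From 7 to 12 weeks SPF knockouts gave the same 7 calls, 3 higher and 4 lower, and these held without each array in turn. With only the groups compared in the fit, Arntl, Per1 and Cry2 were not called (adjusted p of 0.052, 0.0544 and 0.05002), which left 4. Arntl rose by 1.33 ± 0.33, Npas2 by 1.11 ± 0.26 and Cry1 by 1.02 ± 0.24. Per1 fell by 1.04 ± 0.28, Per2 by 1.70 ± 0.31, Per3 by 2.62 ± 0.31 (6.13-fold, adjusted p = 5.02e-05) and Cry2 by 1.29 ± 0.18. These were 7 of 8 members called, against 27.9% of all genes. All 8 members were without overlap, as were 36.4% of genes. The median absolute difference was 1.20 over the members and 0.19 over all genes. From 9 to 12 weeks limma called 0 members and 0.0% of genes, and 0 members had an unadjusted p under 0.05. Without SPF replicate 2 at 12 weeks 1 member was called, Cry2 (-0.52, adjusted p = 0.0408).

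Conventional knockouts went the other way from 7 to 9 weeks for the activators and Cry1. Arntl fell by 1.16 ± 0.33 (adjusted p = 0.0299), Npas2 by 1.07 ± 0.26 (adjusted p = 0.0141), Cry1 by 1.16 ± 0.24 (adjusted p = 0.00535), Per2 by 1.64 ± 0.31 (adjusted p = 0.00311) and Cry2 by 0.69 ± 0.18 (adjusted p = 0.0169). So 0 members were higher and 5 lower, against 10.4% of all genes, and Per1 (0.27 ± 0.28) and Per3 (-0.65 ± 0.31) were not called. The Per2 and Cry1 calls held without each array in turn. The Arntl call was lost without any 1 of the 6 arrays (adjusted p of 0.0522 to 0.0987), the Npas2 call without 7-week replicate 1 or 2 or 9-week replicate 1 (-1.0, -1.05 and -0.96), and the Cry2 call without replicate 1 or 2 of either age (-0.71 to -0.56). The count was 2, 2, 2 and 3 without 7-week replicates 1 and 2 and 9-week replicates 1 and 2. With the replicate block the Arntl call was lost too (adjusted p = 0.0563). From 9 to 12 weeks 0 members were called (7.34% of genes, 4 members unadjusted), with Arntl at 0.77 ± 0.33 and Npas2 at 0.62 ± 0.26, and without 9-week replicate 3 or 12-week wild-type replicate 3 it was 1 member (Cry2 at 0.58 and Arntl at 0.77). From 7 to 12 weeks limma called 0 members and 0.0% of genes, with 2 members unadjusted, Per2 at -1.55 ± 0.31 and Cry1 at -0.86 ± 0.24.

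Wild types had no called member between ages. From 7 to 9 weeks limma called 0 members and 0.0055% of genes (1 gene, Ciart at -1.81 ± 0.26), while 7 members had an unadjusted p under 0.05 and all 8 were without overlap, as were 12.2% of genes. Their values had the signs of the SPF knockouts: Arntl 1.67 ± 0.33 (adjusted p = 0.0978), Npas2 1.57 ± 0.26 (adjusted p = 0.0504), Cry1 0.71 ± 0.24, Per1 -1.24 ± 0.28, Per2 -1.42 ± 0.31 and Per3 -0.97 ± 0.31. The members' median absolute difference was 1.10, against 0.09 over all genes. The count depended on single arrays: it was 3 without 12-week wild-type replicate 2 (Arntl, Npas2 and Per2), 2 without 12-week wild-type replicate 3 (Arntl and Npas2) or 9-week conventional replicate 3 (Npas2 and Per1), and 1 (Npas2) without 7-week wild-type replicate 3, 9-week SPF replicate 1 or 3, 12-week conventional replicate 1 or 12-week wild-type replicate 1. From 9 to 12 weeks it was 0 members and 0.0% of genes (2 members unadjusted), or 2 without replicate 3, Arntl at -1.38 and Npas2 at -1.02. From 7 to 12 weeks it was 0 members with 0.121% of genes (22 genes, 6 members unadjusted), or 2 without replicate 1, Npas2 at 1.19 and Cry1 at 0.97.

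Whether the kinds of mice changed differently with age was tested by interaction terms. From 7 to 9 weeks the difference between conventional knockouts and wild types became lower for Arntl, Npas2 and Cry1 and higher for Per1. The change was -2.83 ± 0.47 for Arntl (adjusted p = 0.00598), -2.64 ± 0.37 for Npas2 (adjusted p = 0.00144) and -1.87 ± 0.34 for Cry1 (adjusted p = 0.00869), and 1.51 ± 0.40 for Per1 (adjusted p = 0.0495). This is 1 member higher and 3 lower, against 2.01% of all genes. The Per1 call was lost without any 1 of 20 arrays (adjusted p of 0.0524 to 0.118), and its value was 1.07 without conventional replicate 3 at 9 weeks and 1.46 to 1.60 without any other of them. It was also lost with the replicate block (adjusted p = 0.0736). Against SPF knockouts the same change was -2.97 ± 0.47 for Arntl, -2.46 ± 0.37 for Npas2 and -2.54 ± 0.34 for Cry1 (0 higher and 3 lower, 0.0934% of genes), and these 3 held without each array in turn. Per1 (1.80 ± 0.40, adjusted p = 0.0953) was added without 9-week conventional replicate 1 (2.16), 12-week SPF replicate 2 or 12-week wild-type replicate 3. SPF knockouts against wild types gave 0 members and 0.0% of genes (2 members unadjusted, Per3 at -1.28 ± 0.44 and Cry2 at -0.70 ± 0.25).

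From 7 to 12 weeks conventional minus SPF knockouts changed by -1.73 ± 0.47 for Arntl, -1.56 ± 0.37 for Npas2 and -1.87 ± 0.34 for Cry1, and by 2.41 ± 0.44 for Per3 and 1.03 ± 0.25 for Cry2, 2 members higher and 3 lower against 9.35% of genes. The Arntl call was lost without any 1 of 9 of the 12 arrays, the Npas2 call without 7-week SPF replicate 3, 12-week conventional replicate 2 or 12-week SPF replicate 3, and the Cry2 call without 7-week conventional replicate 3, 7-week SPF replicate 2 or 12-week SPF replicate 3 (adjusted p of 0.0505 to 0.0751 in all of these). The count was 2 without 12-week SPF replicate 3 and 3 without 7-week conventional replicate 3, 7-week SPF replicate 2 or 3 or 12-week conventional replicate 2. With the replicate block the Arntl call was lost too (adjusted p = 0.0579). SPF minus wild type over the same ages changed by -1.95 ± 0.44 for Per3 and -1.13 ± 0.25 for Cry2 (0 higher and 2 lower, 8.92% of genes). Neither was called without 7-week SPF replicate 2 or 12-week SPF replicate 3, and Per3 was lost also without 12-week SPF replicate 1 or wild-type replicate 2 (adjusted p of 0.0528 to 0.0633 for Per3). Neither was called without both doubted wild-type arrays (-1.66 and -1.10, adjusted p of 0.0882 and 0.0823), nor with only the groups compared (adjusted p of 0.0733 and 0.0822), where Cry2 was also lost in conventional minus SPF knockouts (adjusted p = 0.0721). Conventional minus wild type from 7 to 12 weeks gave 0 members and 0.0% of genes (4 members unadjusted, the furthest being Cry1 at -1.56 ± 0.34), and 1 without 12-week wild-type replicate 1 (Cry1 at -1.82).

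From 9 to 12 weeks conventional minus SPF knockouts changed by -1.15 ± 0.40 for Per1 (adjusted p = 0.0464) and 0.76 ± 0.25 for Cry2 (adjusted p = 0.0376), 1 member higher and 1 lower against 18.6% of genes. The Per1 call was lost without any 1 of 23 arrays, with -0.71 without conventional replicate 3 at 9 weeks, and the Cry2 call without any 1 of 8 (0.50 to 0.83). With only the groups compared both were lost (adjusted p of 0.146 and 0.152). The replicate block lost the Per1 call (adjusted p = 0.0644). None of the members was called without 9-week conventional replicate 2, 9-week SPF replicate 1 or 2, 12-week conventional replicate 1 or 2, or 12-week SPF replicate 1 or 3. Without 12-week wild-type replicate 3 it was 4, with Arntl (1.25) and Npas2 (0.90) added. Arntl was also called without 9-week SPF replicate 3, 12-week SPF replicate 2 or 12-week wild-type replicate 2, and Npas2 without 9-week SPF replicate 3. Conventional minus wild type gave 0 members with 1.82% of genes called (3 members unadjusted), with Arntl at 1.57 ± 0.47 and Npas2 at 1.22 ± 0.37. Both were called without 12-week wild-type replicate 3 (2.15 and 1.64) or 12-week SPF replicate 2 (1.57 and 1.22). SPF minus wild type gave 0 members and 0.0% of genes, and 0 members unadjusted.

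Members also varied together from array to array. Over the 27 arrays, which share the normalization and fall into 9 groups, Pearson's r with Arntl was 0.91 for Npas2, 0.85 for Cry1, -0.84 for Per1 and -0.63 for Per3. For deviations of arrays from their group means the values were 0.68, 0.61, -0.69 and -0.36. Per2 and Per3 had r of 0.78 over arrays and 0.58 over deviations, and Per3 and Cry2 0.86 and 0.45. These are descriptions without a test. The 8 arrays with Arntl under 7 all had Per3 of 6.80 or more.

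**Figure D4:**
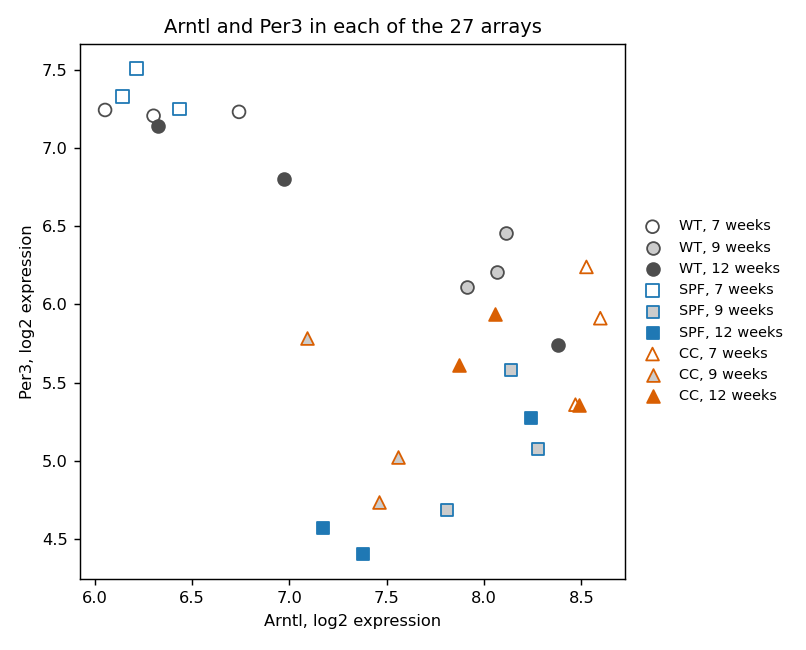
Per3 against Arntl log2 expression in each of the 27 arrays, with shape for the kind of mouse and fill for age. The 7-week wild types and SPF knockouts and wild-type replicates 1 and 2 of 12 weeks lie at the upper left (Arntl 6.05 to 6.97, Per3 6.80 to 7.51), and the conventional knockouts lie lower and to the right (Arntl 7.09 to 8.60, Per3 4.74 to 6.24). SPF knockouts of 9 and 12 weeks lie there too (Arntl 7.17 to 8.28, Per3 4.40 to 5.58). The 9-week wild types also lie to the right (Arntl 7.91 to 8.11, Per3 6.11 to 6.46).

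Outside the members, the genes most like Arntl over the 27 arrays were Spon2 (r = 0.91), Lonrf3 (0.90), Mpzl1 (0.85), Tmem139 (0.85) and Rnf24 (0.82). Those most opposed were Ciart (-0.94), Coq10b (-0.88), Dbp (-0.82), Ccdc116 (-0.78) and Tef (-0.78), of which Ciart, Dbp and Tef are genes of the clock lists. By Spearman's rho Dbp and Tef stood at ranks 21 and 34 among genes opposed to Arntl. By the same measure Ciart kept rank 1 among genes opposed to Arntl and Lonrf3 took rank 1 among those like it. For Per2 the highest were Cys1 (0.85), Hlf (0.81), Ankrd12 (0.79), Eef2k (0.78) and Mllt10 (0.76), and the lowest were Sprr1a (-0.79), Glipr2 (-0.78), Pimreg (-0.76), Dync1li1 (-0.75) and 5830408C22Rik (-0.75). With deviations from group means, Ciart was again the gene most opposed to Arntl by Pearson's r (-0.82), but stood at rank 16 by Spearman's rho. Most like Arntl by r were Ak3 (0.85), Hid1 (0.83), Fads2 (0.82), Nobox (0.80) and Mmaa (0.80). By rho these stood at ranks 20, 61, 28, 337 and 4. With deviations Cpeb3 (0.84) was most like Per2 by r and Gfm2 (-0.86) most opposed, at ranks 26 and 1 by rho.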

How the data were processed

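Expression was measured on 27 arrays of full-thickness colon RNA (Trizol, RNeasy columns), 3 per group in 9 groups. Per the labels, the authors normalized the arrays with affyPLM, and the deposited values are log2 expression. The sources used here do not state the version or the steps. Although a rat array is named in the submitters' text, the annotated probe sets are of mouse genes. Of 45101 probe sets, 64 controls were left out, 34945 had 1 gene symbol, 932 several and 9160 none. The probe set with the highest mean stood for each of 18193 genes. Differences came from limma 3.58.1 (R 4.3.3), with 9 group means, moderated variances and two-sided p adjusted by Benjamini-Hochberg over all genes of a comparison, or over 45037 probe sets where stated. Tables were made in Python 3.11.15 (pandas 2.3.3 with NumPy 2.4.6), figures with matplotlib 3.10.9.

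On simulated data for conventional knockouts minus wild types at 7 weeks (18193 genes), the fit called 91% of 100 genes changed by 1, 98% of 100 changed by 2 and 5 unchanged genes. The number of arrays limits the precision. No 2 arrays were identical. The named genes are all 8 members, up to 4 called genes of each list per comparison by smallest adjusted p, and the 5 genes most like and most opposed to Arntl and Per2. Members and lists were chosen with earlier results of these data known. Alternatives tried were normalization, filtering, probe set choice, variance model, arrays fitted and a replicate block.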

Additional observations from a re-analysis of the deposited data

Results flagged for a closer look

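In 6 of the 8 members the difference between kinds of mice changed with age in at least 1 of 9 interaction comparisons. The share of all genes called in at least 1 of them was not counted. The change in conventional knockouts minus wild types from 7 to 9 weeks was -2.83 for Arntl, -2.64 for Npas2, -1.87 for Cry1 and 1.51 for Per1. In conventional minus SPF knockouts over those ages it was -2.97 for Arntl, -2.46 for Npas2 and -2.54 for Cry1. From 7 to 12 weeks it was -1.73 for Arntl, -1.56 for Npas2, -1.87 for Cry1, 2.41 for Per3 and 1.03 for Cry2. From 9 to 12 weeks it was -1.15 for Per1 and 0.76 for Cry2. In SPF knockouts minus wild types from 7 to 12 weeks it was -1.95 for Per3 and -1.13 for Cry2. Of all genes, 2.01% were called in the conventional minus wild type change and 8.92% in the SPF minus wild type change. In conventional minus SPF knockouts the share was 0.0934% from 7 to 9, 9.35% from 7 to 12 and 18.6% from 9 to 12 weeks. The Per1 calls were lost without any 1 of 20 arrays (7 to 9 weeks) and any 1 of 23 (9 to 12 weeks). In conventional minus SPF knockouts from 7 to 12 weeks, Arntl was lost without any 1 of 9 arrays, and Npas2 and Cry2 without any 1 of 3. The Cry2 call from 9 to 12 weeks was lost without any 1 of 8. In SPF knockouts minus wild types, Per3 was lost without any 1 of 4 arrays and Cry2 without any 1 of 2. Neither was called there without both doubted wild-type arrays. Comparisons that share arrays are not independent, and the hour at which each group was sampled is not given in the sources used here. Kind of mouse and age thus cannot be told apart from hour of sampling.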

How the results depend on the processing

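The 216 member differences come from 27 comparisons, in which 0.0% to 34.8% of all genes were called. Of these member differences 53 were called, and 0 of the 53 reversed under any alternative. In all 27 omissions of 1 array 29 stayed called, in all 10 other settings 35, and in both 25. Some setting called 51 others. Same-numbered arrays did not pair (4 of 27 pairs with r over 0.1, median 0.0057), so the replicate block says nothing of pairing. It only lost calls, each given above, and left 1 called member in conventional minus SPF knockouts from 9 to 12 weeks.

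With array weights there were 6 called members in conventional knockouts minus wild types at 9 weeks, 5 and 4 in conventional minus SPF knockouts at 9 and 12 weeks, 4 in conventional knockouts from 9 to 12 and 1 from 7 to 12 weeks, 4 in SPF knockouts from 9 to 12 weeks, 4 in wild types from 7 to 9 weeks, and among interactions 3 (conventional minus wild type, 7 to 12 weeks), 6 and 5 (conventional minus SPF, 7 to 9 and 9 to 12 weeks). In the same order, array weights called 7659, 3681, 6997, 5722, 5, 6288, 35, 19, 1456 and 7903 of 18193 genes. With only the groups compared there were 5 in conventional knockouts minus wild types at 9 weeks, 0 in conventional minus SPF knockouts at 12 weeks, 1 in conventional knockouts from 9 to 12 weeks, 4 in SPF knockouts from 7 to 9 and from 7 to 12 weeks, 5 in wild types from 7 to 9 weeks, and 0 in the SPF minus wild type (7 to 12) and conventional minus SPF (9 to 12 weeks) interactions. In the same order, this setting called 4759, 20, 1842, 16, 394, 15, 8 and 26 of 18193 genes. Quantile normalization again and median centring each gave 1 in wild types from 7 to 9 weeks and 1 in the conventional minus SPF interaction from 9 to 12 weeks. Over all genes they called 4 and 3 in wild types and 3498 and 3343 in that interaction. Leaving out the dimmest 40% of genes, the mean of probe sets, all probe sets and an intensity trend each gave 1 in wild types from 7 to 9 weeks. The mean of probe sets and all probe sets each gave 1 in conventional minus SPF knockouts at 12 weeks, and all probe sets 1 in that interaction from 9 to 12 weeks. Without both doubted wild-type arrays (chosen after seeing the data) there were 2 in wild types from 7 to 9 weeks and 0 in the SPF minus wild type interaction from 7 to 12 weeks. The cause was not tested. Smaller changes of a count are not listed here, such as those from Per1 at 7 weeks, given above.

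Without 1 array, called members ranged over 3 to 4 in conventional knockouts minus wild types at 7 weeks, 2 to 5 in conventional knockouts minus wild types at 9 weeks, 0 to 2 in conventional knockouts minus wild types at 12 weeks, 0 to 3 in SPF knockouts minus wild types at 9 weeks, 2 to 5 in SPF knockouts minus wild types at 12 weeks, 3 to 5 in conventional knockouts minus SPF knockouts at 7 weeks, 1 to 2 in conventional knockouts minus SPF knockouts at 12 weeks, 2 to 5 in conventional knockouts from 7 to 9 weeks, 0 to 1 in conventional knockouts from 9 to 12 weeks. They ranged over 3 to 7 in SPF knockouts from 7 to 9 weeks, 0 to 1 in SPF knockouts from 9 to 12 weeks, 0 to 3 in wild types from 7 to 9 weeks, 0 to 2 in wild types from 9 to 12 weeks, 0 to 2 in wild types from 7 to 12 weeks, 3 to 4 in the conventional minus wild type interaction from 7 to 9 weeks, 0 to 2 in the conventional minus wild type interaction from 9 to 12 weeks, 0 to 1 in the conventional minus wild type interaction from 7 to 12 weeks, 0 to 2 in the SPF minus wild type interaction from 7 to 12 weeks, 3 to 4 in the conventional minus SPF interaction from 7 to 9 weeks, 0 to 4 in the conventional minus SPF interaction from 9 to 12 weeks, 2 to 5 in the conventional minus SPF interaction from 7 to 12 weeks.

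Over all genes, the number called, with its range over the other settings, was 92 (67 to 763) in conventional knockouts minus wild types at 7 weeks, 4375 (4066 to 7718) in conventional knockouts minus wild types at 9 weeks, 82 (11 to 199) in conventional knockouts minus wild types at 12 weeks, 10 (8 to 139) in SPF knockouts minus wild types at 7 weeks, 2155 (1440 to 6223) in SPF knockouts minus wild types at 9 weeks, 6329 (1321 to 11893) in SPF knockouts minus wild types at 12 weeks, 49 (33 to 253) in conventional knockouts minus SPF knockouts at 7 weeks, 0 (0 to 3681) in conventional knockouts minus SPF knockouts at 9 weeks, 4480 (20 to 7513) in conventional knockouts minus SPF knockouts at 12 weeks. It was 1899 (1722 to 5072) in conventional knockouts from 7 to 9 weeks, 1335 (1029 to 5722) in conventional knockouts from 9 to 12 weeks, 0 (0 to 5) in conventional knockouts from 7 to 12 weeks, 132 (16 to 3392) in SPF knockouts from 7 to 9 weeks, 0 (0 to 6288) in SPF knockouts from 9 to 12 weeks, 5071 (394 to 8879) in SPF knockouts from 7 to 12 weeks, 1 (0 to 35) in wild types from 7 to 9 weeks, 0 (0 to 9) in wild types from 9 to 12 weeks, 22 (0 to 88) in wild types from 7 to 12 weeks. For interactions it was 366 (200 to 3101) in the conventional minus wild type interaction from 7 to 9 weeks, 332 (0 to 2841) in the conventional minus wild type interaction from 9 to 12 weeks, 0 (0 to 19) in the conventional minus wild type interaction from 7 to 12 weeks, 0 (0 to 41) in the SPF minus wild type interaction from 7 to 9 weeks, 0 (0 to 2768) in the SPF minus wild type interaction from 9 to 12 weeks, 1623 (8 to 4540) in the SPF minus wild type interaction from 7 to 12 weeks, 17 (14 to 1456) in the conventional minus SPF interaction from 7 to 9 weeks, 3387 (26 to 7903) in the conventional minus SPF interaction from 9 to 12 weeks, 1701 (538 to 5685) in the conventional minus SPF interaction from 7 to 12 weeks.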
